A study of Mus musculus with 8 samples.

Results

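The regions described here are the ATAC-seq peaks that mK3 and mK4, 2 cell lines from mouse kidney, have on chromosomes 14 and 15. ATAC-seq cuts accessible DNA with a transposase, and a peak is an interval where cuts pile up above their surroundings. Every listed peak on either chromosome was taken, 5800 of 57272 peaks in both lists together. They comprise 991 mK3 and 1093 mK4 peaks on chromosome 14, and 1516 mK3 and 2200 mK4 peaks on chromosome 15. Peaks were counted per line in bins of 10 Mb from position 0, by the middle of each interval. The pair of chromosomes was chosen by the peak counts of the 2 lines, so counts and ratios are descriptions with no test. Local background and pileup come from the same libraries and are descriptions too. RNA from the same lines is not part of that rule and was tested, but earlier results of these data, RNA included, were known when the regions and lists were chosen.

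Both lines are labelled wild type ("wt") and untreated, and both grew in DMEM with fetal bovine serum. The labels call mK3 uninduced and mK4 epithelial-differentiated metanephric mesenchymal cells, the cells that give rise to nephrons in the embryonic kidney. Each is 1 cell line, so line and differentiation state cannot be told apart. ATAC-seq was done on 1 library per line, and total RNA was sequenced in 3 libraries per line. The labels number the RNA libraries as duplicates without saying whether cultures were separate, so the spread behind each p-value may be technical only.

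RNA libraries held 137559391 to 152952351 counts. Levels are CPM, each library's counts scaled to the same total, and 20405 genes entered the test. Among mesenchyme markers, Vim (172 CPM in mK3, 231 in mK4) and Cdh2 (493 and 569) were present in both lines, while Col1a2 (981 and 0.221) and Prrx1 (736 and 0.190) were near 0 in mK4. Nephron regulators Pax2 (0 and 30.0 CPM) and Eya1 (10.1 and 187) were at higher mean levels in mK4. Of the same list, Osr1 (11.2 and 2.25 CPM) and Six2 (0.338 and 0) were at lower mean levels. Wt1 (0 and 0.352 CPM) and Cited1 (0.014 and 0.024) were near 0 in both lines. Of 9 epithelial markers, Cdh16 (84.2 CPM) and Cdh6 (1668 CPM) stood out in mK4, whereas Krt18, Cldn3 and Cldn4 were at 0 in all 6 libraries. Cdh1, Epcam and Krt8 were below 0.3 CPM in both lines, so the epithelial label of mK4 rests on few of these markers. Leukocyte markers stayed below 1.2 CPM, and the highest endothelial marker was Cdh5 at 7.35 CPM in mK4.

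A peak caller compares the reads over an interval, its pileup, with the background expected there. MACS, the caller named in the submitters' processing notes, takes as background the largest of a library-wide level and levels from windows around the peak. A region where all DNA yields more reads therefore has a raised local background as well as taller peaks. An open promoter in an average region has a tall peak over a low background. Open chromatin at gene starts commonly accompanies transcription, and distal peaks can mark enhancers.

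Promoters of 6 named genes whose RNA changed are shown because each overlaps a peak listed in 1 line only. At most 4 such genes per chromosome were taken, those with the largest fold changes, so others that met the rule were left out. Il17rd and Fkbp11 were taken as well and are not printed. Each printed window is the 250 bases before a RefSeq start of the gene (GRCm38.p6), 5′ to 3′ on the gene's strand. For Rarb, Cdh6 and Scel that start lies inside the gene's full span, which for Rarb is chr14:16430839-17082331. Capitals mark any match, on either strand, to 6 motifs: the GC box GGGCGG, the CCAAT box, the TATA box TATAAA, the AP-1 motif TGANTCA, the TEAD motif GGAATG and the GATA motif AGATAA.
Cdh6, chr15:13173676-13173925, minus strand, mK4 peak: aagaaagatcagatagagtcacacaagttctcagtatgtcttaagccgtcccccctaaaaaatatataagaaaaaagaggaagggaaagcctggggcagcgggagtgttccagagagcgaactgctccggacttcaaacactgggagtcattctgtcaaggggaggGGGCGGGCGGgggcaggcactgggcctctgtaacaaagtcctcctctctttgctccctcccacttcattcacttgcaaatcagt
Ranbp3l, chr15:8967699-8967948, plus strand, mK4 peak: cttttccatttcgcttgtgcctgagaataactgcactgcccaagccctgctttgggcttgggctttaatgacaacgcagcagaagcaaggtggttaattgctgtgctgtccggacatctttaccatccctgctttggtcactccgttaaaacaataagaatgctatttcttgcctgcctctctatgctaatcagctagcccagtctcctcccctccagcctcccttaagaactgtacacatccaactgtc
Fbxl7, chr15:26895565-26895814, minus strand, mK3 peak: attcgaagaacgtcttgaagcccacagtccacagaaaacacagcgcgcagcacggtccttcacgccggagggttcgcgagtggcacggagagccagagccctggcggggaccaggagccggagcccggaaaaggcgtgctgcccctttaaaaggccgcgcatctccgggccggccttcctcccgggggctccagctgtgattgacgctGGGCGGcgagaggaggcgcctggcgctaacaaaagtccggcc
Rarb, chr14:16575477-16575726, minus strand, mK3 peak: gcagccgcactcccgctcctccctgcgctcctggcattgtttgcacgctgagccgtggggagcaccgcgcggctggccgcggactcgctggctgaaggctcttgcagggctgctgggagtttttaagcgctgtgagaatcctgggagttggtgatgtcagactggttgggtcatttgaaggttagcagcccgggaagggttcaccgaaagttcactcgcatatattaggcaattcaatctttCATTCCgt
Saysd1, chr14:20083173-20083422, minus strand, mK4 peak: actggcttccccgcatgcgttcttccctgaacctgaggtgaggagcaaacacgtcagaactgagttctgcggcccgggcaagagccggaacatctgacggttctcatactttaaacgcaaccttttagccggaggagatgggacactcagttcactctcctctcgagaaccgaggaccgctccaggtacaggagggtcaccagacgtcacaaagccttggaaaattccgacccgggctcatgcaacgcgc
Scel, chr14:103513091-103513340, plus strand, mK4 peak: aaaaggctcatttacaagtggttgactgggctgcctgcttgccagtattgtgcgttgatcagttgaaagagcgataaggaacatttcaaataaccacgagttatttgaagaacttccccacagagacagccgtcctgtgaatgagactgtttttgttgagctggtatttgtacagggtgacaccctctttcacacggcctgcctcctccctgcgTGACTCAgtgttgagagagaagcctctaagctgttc
The Cdh6 window holds 2 overlapping matches to GGGCGG and the Fbxl7 window 1, a motif found in 32.7% of the 32851 windows of this length in the RefSeq table. Scel has 1 match to TGANTCA (6.75% of windows), and Rarb has 1 to the reverse complement of GGAATG (12.6%). Saysd1 and Ranbp3l have none of these letters. Fbxl7 has 25 CG dinucleotides, Saysd1 17 and Rarb 16, against a median of 6 over all windows. Cdh6 and Scel have 6 each and Ranbp3l has 4.

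On chromosome 15 the 10 to 20 Mb bin stood apart. It held 68 mK3 and 328 mK4 peaks, so mK4 gave 82.8% of them (95% Clopper-Pearson interval 78.8% to 86.4%, counting error only). Over chromosomes 1 to 19 and X the mK4 list was 1.54 times as long as the mK3 list. Relative to that, the bin's mK4 to mK3 ratio was 3.12, rank 1 of the 264 bins with at least 20 peaks. The bin before it, 0 to 10 Mb, had 109 mK3 and 237 mK4 peaks and a relative ratio of 1.41. The bin after it, 20 to 30 Mb, had 99 and 114 peaks and a relative ratio of 0.746. The ratio thus rose and fell again within the first 3 bins.

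Past 30 Mb the relative ratio of chromosome 15 was between 0.448 and 0.866. The lowest value came from 40 to 50 Mb, where mK3 had 78 peaks and mK4 54, rank 5 from the lowest of 264 bins. From 60 Mb to the end the 5 bins differed little, at 0.812 to 0.855. Over the whole chromosome the relative ratio was 0.940 (interval 0.880 to 1.00), so the early excess and the later deficit nearly balanced. The single boundary that best separated the mK4 shares lay at 17 Mb, with a relative ratio of 2.11 before it and 0.789 after it. That step, 1.42 on the log2 scale, was the largest among the best steps of the 20 chromosomes.

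A bin was counted when its relative ratio passed 1.5-fold in either direction. Over all chromosomes 23 of 264 bins were higher (8.71%) and 27 lower (10.2%). Chromosome 15 had 1 higher and 1 lower of 11 bins, and chromosome 14 had 0 higher and 6 lower of 13. Nearest to the threshold were 2 bins of chromosome 14, 10 to 20 Mb just inside (0.657) and 100 to 110 Mb just outside (0.683). The count of 8 bins fell to 5 with peaks of −log10 q of at least 5 and to 4 with peaks of fold enrichment of at least 5. The same restrictions carried the relative ratio of chromosome 15 past 1, to 1.03 and 1.11.

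**Figure D1:**
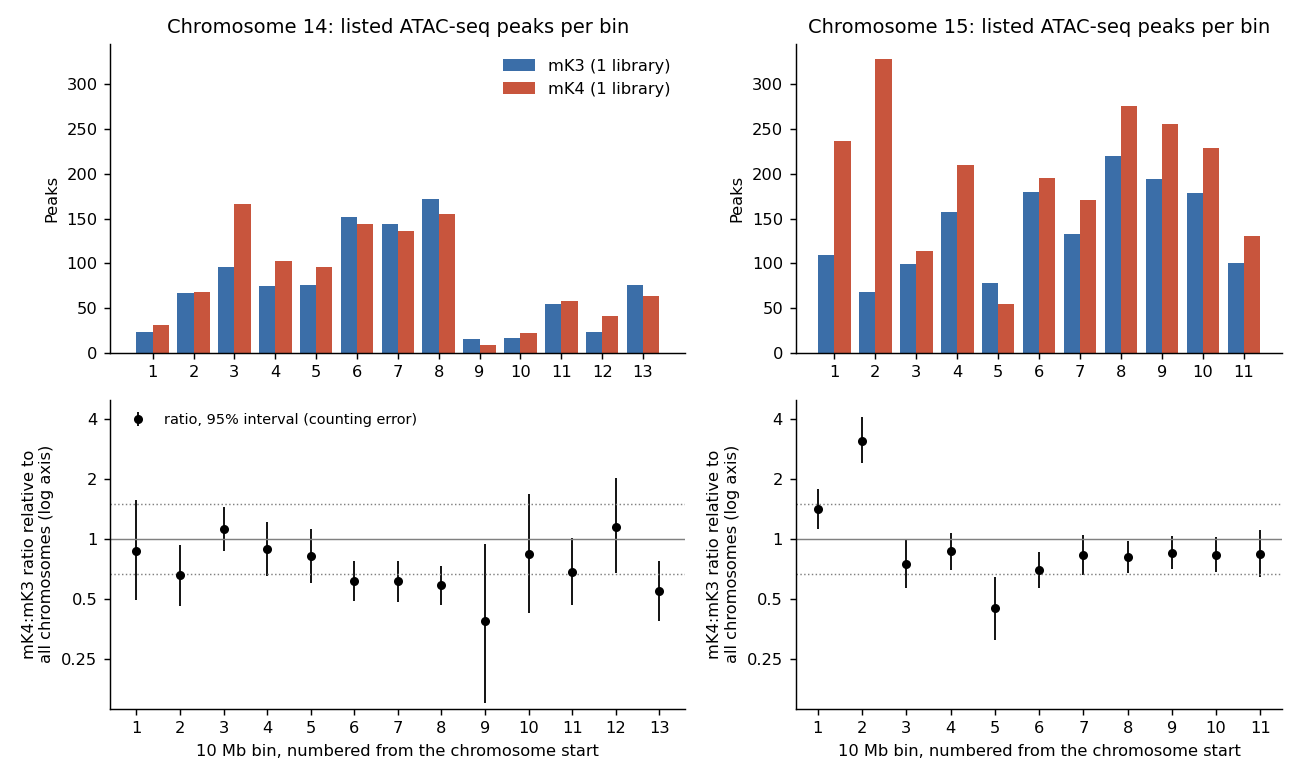
Top: listed ATAC-seq peaks per 10 Mb bin on chromosomes 14 and 15, 1 library per line. Bottom: mK4 to mK3 ratio divided by that of chromosomes 1 to 19 and X (log axis), with 95% Clopper-Pearson bars for counting error and dotted lines at 1.5-fold either way. Bin 2 of chromosome 15 is at 3.12, and bins 6 to 8 of chromosome 14 lie between 0.583 and 0.614.

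The pileup and the local background of every peak on the 2 chromosomes could be recovered from the authors' fold enrichment and −log10 p, to within 0.001 in −log10 p. The library-wide background was 5.83 in mK3 and 4.505 in mK4. Local backgrounds are given below as multiples of the line's own library value. This recovery was added after the bin counts had been seen.

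From chr15:8382268 to 16795258 (mm10), 8.41 Mb, the mK4 peaks sat on a raised background. Where the running median over 9 mK4 peaks was at least 3 times the library background, 2 pieces were found, 8382268 to 9229470 (79 peaks) and 9444945 to 16795258 (351 peaks). They were joined, with the peaks between them, after their values had been seen, and are called the run here. It held 446 mK4 and 89 mK3 peaks, a relative ratio of 3.25. Median local background was 7.55 times the library value in mK4 and 1.46 times in mK3. In mK4, 418 of the 446 peaks (93.7%) were at 3 times or more, against 4.5% of all mK4 peaks, and in mK3 6 of 89 (6.74%), against 0.516%. The run was chosen by this mK4 measure, so its high mK4 values follow from the choice and are no separate support. The mK3 peaks there had a background like that of the rest of the chromosome, where the medians were 1.55 times in mK3 and 1.47 times in mK4.

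The peaks in the run were tall but weakly enriched over that background. Median pileup was 76.0 in mK4 and 32.0 in mK3, and median fold enrichment was 2.39 in mK4 and 3.63 in mK3. Outside the run the order of enrichment was the other way, 4.64 in mK4 and 3.69 in mK3. Gene ends were less frequent among the mK4 peaks of the run: 9.87% lay within 1 kb of one, against 29.6% of mK4 peaks elsewhere on the chromosome. Only 61 of the 446 mK4 peaks (13.7%) overlapped an mK3 peak, while 63 of the 89 mK3 peaks (70.8%) overlapped an mK4 peak. Elsewhere on the chromosome the shares were 49.7% of mK4 and 59.6% of mK3 peaks, and on all other chromosomes 47.0% and 73.4%. The mK4 share was thus low in the run, where 385 mK4 peaks had no mK3 counterpart, and the mK3 share was between the other values.

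Peaks listed in both lines allowed a comparison at the same sites. Over the 61 shared peaks of the run the mK4 to mK3 ratio of relative background had a median of 6.91 (quartiles 5.84 and 7.85), and in none was it below 1. The mK4 side of this ratio is the measure that chose the run. The ratio of their raw pileups had a median of 5.57. In the 58 shared peaks before it the background ratio was 0.959, and in the 813 after it 0.949. These 3 groups follow from cutting at the edges of the run, and the number of levels was not tested. No shared peak was listed between 13.4 and 22.7 Mb, so the later part of the run is not covered.

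**Figure D2:**
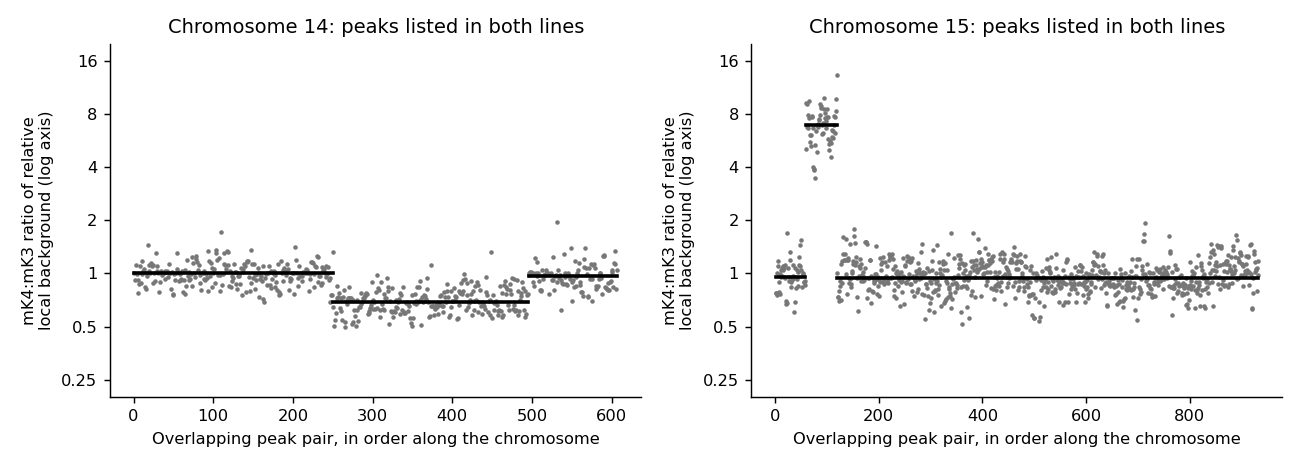
Peaks listed in both lines, in order along each chromosome: mK4 to mK3 ratio of local background, each relative to its library (log axis). Points are overlapping peak pairs, and black lines are medians of the 3 pieces placed by least squares on these ratios, a number of pieces fixed by the fit. The middle piece is at 0.692 on chromosome 14 (245 pairs) and 6.91 on chromosome 15 (61 pairs).

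The run had more than 1 level. In windows of 0.25 Mb, grouped where the mK4 median was at least 5 times, at least 2.5 times or less than 2.5 times the library background, the first level ran from 8.25 to 9.25 Mb. Its mK4 median was 7.57 times the library background over 83 peaks. From 9.25 to 10.25 Mb the median was 3.32 times over 52 peaks, and from 10.25 to 13.5 Mb 8.77 times over 268 peaks. Between 13.5 and 15.75 Mb mK4 had 1 peak, at the library background, and mK3 had 4. From 15.75 to 17 Mb the mK4 median was 4.04 times over 49 peaks, where mK3 had 3. In density, the piece from 10.25 to 13.5 Mb held 82.5 mK4 peaks per Mb against 16.3 for mK3.

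The left edge was narrow. The last mK4 peak before it, ending at 8279629, was at 1.34 times the library background, and the next, starting at 8382268, at 6.06 times. On the right the last peak at 3 times or more ended at 16795258 (4.47 times), and the next, starting at 16806455, was at 2.96 times. Beyond it the lists were sparse, with 1 mK4 and 4 mK3 peaks from 17 to 19 Mb. Before joining, the longer chromosome 15 piece was 7.35 Mb. The rule runs over peaks, so this piece bridges 13.5 to 15.75 Mb, where mK4 had 1 peak, at the library background. Elsewhere in the mK4 list the longest piece by the same rule was 2.55 Mb on chromosome 5, and the others were on chromosomes 3, 5 and 11. The chromosome 5 pieces, of 2.55, 1.90 and 0.638 Mb, lay near each other between 138657860 and 144547595 and were not joined. In mK3 the only piece was 0.0202 Mb on chromosome 11, where mK4 had a piece as well.

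**Figure D3:**
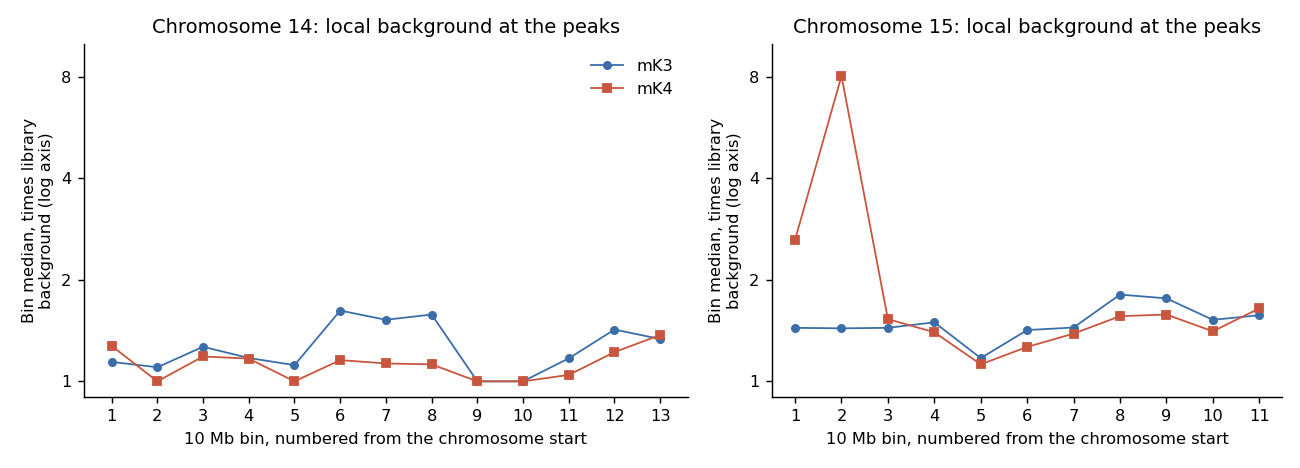
Median local background of the listed peaks in each 10 Mb bin, as a multiple of the line's library background (log axis), 1 library per line. On chromosome 15 mK4 rises in bins 1 and 2 only. On chromosome 14 mK3 lies furthest above mK4 in bins 6 to 8, and by less in several other bins, such as 3 and 12.

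Genes in the run had more RNA in mK4. Of 36 tested genes whose middle lay inside it, 33 were higher in mK4 and 0 lower by edgeR's quasi-likelihood test (Benjamini-Hochberg adjusted p under 0.05 over all genes). Among all 20405 genes 20.8% were higher and 19.5% lower. The median log2 fold change was 2.70, against 0.02 over all genes, with genes at 0 in mK3 set to their lower bound. In 34 of the 36 all mK4 libraries lay above all mK3 libraries, against 28.8% of all genes. Restricting the test to genes at 1 CPM or more in all 6 libraries left 22 genes, of which 21 were higher.

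Across the left edge the direction turned between neighbouring genes. Nup155, a nuclear pore subunit, was lower in mK4, at 338.8, 323.6 and 325.6 CPM in the mK3 libraries and 171.0, 164.1 and 176.6 in the mK4 libraries (log2 fold change −0.95 ± 0.06 SE, edgeR adjusted p = 8.13e-05). Cplane1, a ciliogenesis gene ending at 8271158, was lower too, at −0.75 ± 0.09 (edgeR adjusted p = 0.000953). Nipbl, which loads cohesin onto DNA and lies at 8289824 to 8465315 across the edge, was at 239.0, 233.6 and 223.9 CPM in mK3 and 1142, 1188 and 1099 CPM in mK4. Its log2 fold change was 2.30 ± 0.06 (edgeR adjusted p = 7.25e-06), and it is not counted among the 36.

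Cdh6, the cadherin of early nephron epithelium whose promoter is shown above, had 0 counts in each mK3 library. Its mK4 libraries were at 1711, 1679 and 1612 CPM, at least 69031-fold above the floor of 3 counts per library (edgeR adjusted p = 6.21e-06). Its mK4 start peak, chr15:13172359-13174075, had a pileup of 662 on a background 21.0 times the library value, and mK3 listed no peak within 1 kb of the start. Slc1a3, a glutamate transporter, was at 17.5, 19.2 and 22.0 CPM in mK3 and 892.4, 886.1 and 870.0 in mK4, a log2 fold change of 5.50 ± 0.11 (edgeR adjusted p = 4.4e-06). Both genes had far larger changes than the median of the run.

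Ranbp3l, a relative of a nuclear export cofactor, was at 0.619, 0.121 and 0 CPM in mK3 and 238.8, 236.1 and 204.2 in mK4, a log2 fold change of 9.79 ± 1.08 (edgeR adjusted p = 0.000855). Its start peak, over the promoter shown, was on a background 9.29 times the mK4 library value, with a fold enrichment of 2.498 over it, and the nearest mK3 peak began after the start, at 8968937. The 8 genes at 0 in every mK3 library were Cdh6, Gm29753, Prlr, Cdh9, Ttc23l, Gm34759, Rxfp3 and Gm29742. They spanned 0.147 CPM (Gm29742) to 1668 CPM (Cdh6) in mK4. Gm29753, a predicted gene at chr15:15943024-15943999, reached 266.9, 270.8 and 283.5 CPM. Prlr, the prolactin receptor, was at 5.74 ± 2.37 CPM (SD, n = 3), and Cdh9, a neuronal cadherin, at 4.67 ± 2.32 CPM.

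Genes already expressed in mK3 rose as well. Golph3, a Golgi phosphoinositide-binding protein, was at 482.2, 501.1 and 530.6 CPM in mK3 and 2860, 2965 and 2774 CPM in mK4, 5.68-fold higher (edgeR adjusted p = 6.51e-06). Lmbrd2 rose 4.59-fold, Zfr, which encodes an RNA-binding zinc finger protein, 4.38-fold, and Skp2, an F-box protein of the cell cycle, 3.77-fold. Rad1, of the DNA damage checkpoint clamp, rose 5.92-fold, and Brix1, a ribosome assembly factor, 4.16-fold. Tars, the threonyl-tRNA synthetase, rose 3.34-fold, Sub1, a transcription coactivator, 4.77-fold, and Adamts12, a matrix protease, 3.31-fold. Larger changes were seen for Drosha, the nuclease that trims primary microRNAs (11.2-fold), and Mtmr12, a myotubularin relative (10.9-fold). From low mK3 levels, Npr3, the natriuretic peptide clearance receptor, rose 16.6-fold (2.84 CPM in mK3). C1qtnf3, a secreted C1q-like protein that was barely expressed in mK3 (0.945 CPM), rose 58.3-fold.

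Of the 36 genes 3 did not pass the test, and they are named here after their values were seen. Rai14 was at 42.9, 14.6 and 44.5 CPM in mK3 and 77.9, 76.7 and 74.4 in mK4 (log2 fold change 1.17, edgeR adjusted p = 0.0636). Without mK3 replicate 2, its low library, it passed (0.81, edgeR adjusted p = 0.00194), as it did in DESeq2 (adjusted p = 0.00709) and with the filter at 1 CPM in all libraries (edgeR adjusted p = 0.0387). Gm19276 (−0.22, edgeR adjusted p = 0.815) and Gm2606 (0.15, edgeR adjusted p = 0.347) are predicted genes whose libraries overlapped between lines. Nadk2, mitochondrial NAD kinase, passed (2.70 ± 0.76, edgeR adjusted p = 0.0314) with spread libraries, at 47.1, 9.04 and 41.9 CPM in mK3 and 385.5, 129.4 and 124.3 in mK4. It missed without mK3 replicate 1 (edgeR adjusted p = 0.0607), mK3 replicate 3 (0.0743) or mK4 replicate 1 (0.0840). Some genes here overlap, such as Gm2573 and Mir1898 within Zfr, Gm2606 within Pdzd2 and Ttc23l at the end of Rad1, and 6030458C11Rik starts beside Drosha. Their counts are uncertain, since the handling of reads on overlapping genes is not stated in the labels or file headers.

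**Figure D4:**
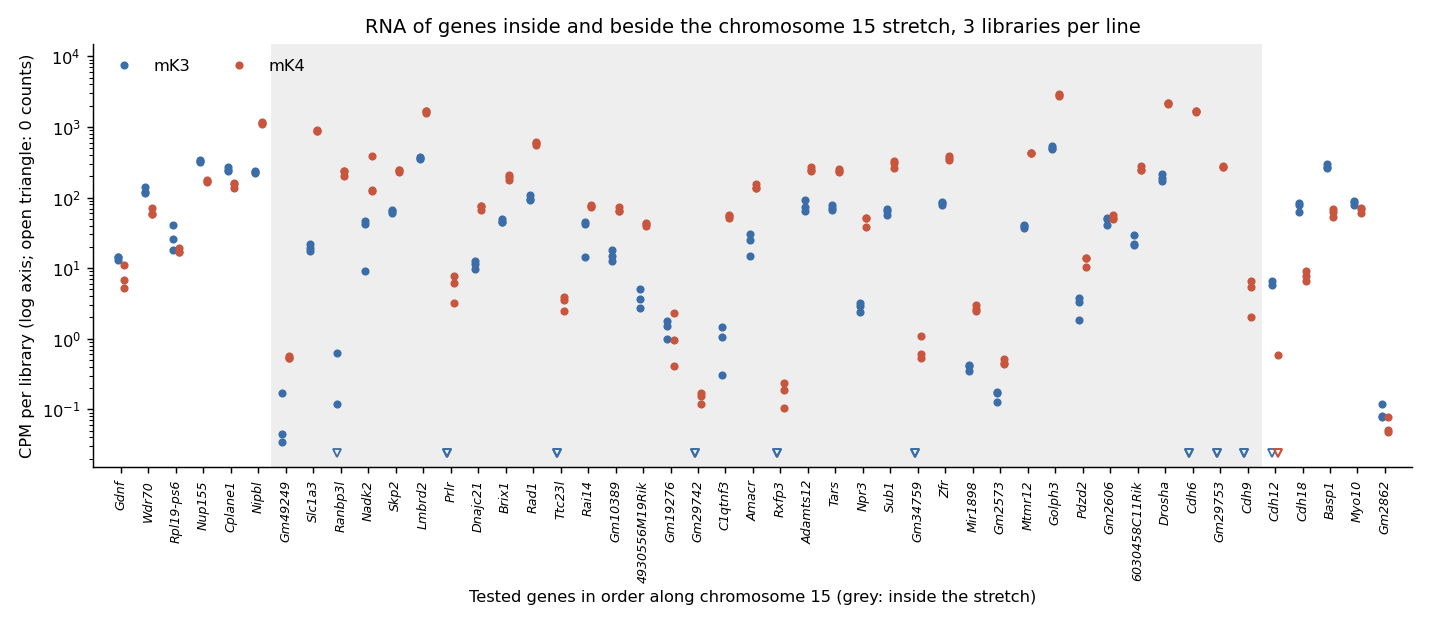
CPM of each RNA library (log axis, 3 per line) for the 36 tested genes inside the chromosome 15 run (grey) and 6 before and 5 after it, in chromosome order. Open triangles are 0 counts, drawn at the floor of 3 counts per library. Inside, mK4 lies above mK3 in all libraries for 34 genes, while Nup155 and Cplane1 before it and Cdh18 and Basp1 after it are lower in mK4.

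The rest of chromosome 15 went the other way. Of 655 tested genes outside the run 65 were higher (9.92%) and 268 lower (40.9%), with a median log2 fold change of −0.55. Over all tested genes the shares were 20.8% and 19.5%. The whole chromosome, with 691 tested genes, 98 higher and 268 lower, had the lowest median of 20 chromosomes (−0.50). In the same stretch of chromosome the relative peak ratio was 0.796. Past the run the tested genes resumed beyond 20 Mb. Cdh18, a type II cadherin starting at 22548898, was lower by 3.27 ± 0.18 on the log2 scale (edgeR adjusted p = 5.95e-05) and Basp1, a membrane-bound signalling protein starting at 25363277, by 2.17 ± 0.12 (edgeR adjusted p = 6.06e-05).

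Signals and receptors of chromosome 15 went both ways. Of 17 tested genes of this list 7 were higher and 7 lower (median −0.74). Over the whole chromosome 14.2% of tested genes were higher and 38.8% lower (median −0.50), and over all genes 20.8% and 19.5%. No list of chromosome 15 was tested against these shares. Wnt7b, a ligand of the collecting duct epithelium, had 0 counts in mK3 and 9.85, 9.38 and 13.9 CPM in mK4, at least 457-fold above the floor (edgeR adjusted p = 0.000163). Celsr1, a planar polarity cadherin, was 246-fold higher and the activin receptor Acvr1b 2.69-fold. Rspo2, a secreted enhancer of Wnt signalling, was at 342.5, 353.2 and 343.0 CPM in mK3 with no count in any mK4 library, at least 15752-fold lower (edgeR adjusted p = 7.55e-06). The cytokine receptor Lifr and the growth hormone receptor Ghr, both before the run, were lower by 0.75 and 2.28 on the log2 scale.

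Gdnf, the mesenchymal signal that induces ureteric budding, lies before the run. Its libraries were at 14.52, 13.04 and 14.28 CPM in mK3 and 11.03, 6.83 and 5.18 in mK4. All mK4 libraries were lower, but the difference missed the threshold (log2 fold change −0.86 ± 0.28, edgeR adjusted p = 0.0543). Without mK4 replicate 1 it passed (−1.21, edgeR adjusted p = 0.00775). DESeq2 passed it as well (adjusted p = 0.00927), as did DESeq2 size factors in edgeR (adjusted p = 0.0482) and the filter at 1 CPM in all libraries (edgeR adjusted p = 0.0335). Peaks were listed at its start in both lines, at 1.89 times the library background in mK3 and 2.34 times in mK4.

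Transcription factors of chromosome 15 had 2 higher and 6 lower of 17 tested (median −0.52, near the −0.50 of the whole chromosome). Trps1, a GATA-type repressor, was 4.797-fold higher and Zfpm2, a GATA cofactor, 5.93-fold lower. Myc was at 5.78, 2.31 and 8.95 CPM in mK3 and 4.07, 3.65 and 1.78 in mK4, and its libraries overlapped (edgeR adjusted p = 0.278). The Hox C cluster, which carries positional identity along the body axis, had 7 of 9 genes lower and 0 higher (median −3.55). Hoxc6, Hoxc8 and Hoxc9 kept low levels in mK4 (2.23, 0.325 and 0.276 CPM). Hoxc11 was at 0 in each mK4 library, as were Hoxc10 (3.25 CPM in mK3) and Hoxc13 (8.98 CPM in mK3). Hoxc4 (−0.96, edgeR adjusted p = 0.266) and Hoxc5 (−2.45, edgeR adjusted p = 0.408) did not pass.

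Cadherin, matrix and adhesion genes of chromosome 15 had 5 higher and 10 lower of 20 tested (median −1.28). Of the 5, Cdh6, Cdh9, Npr3 and Adamts12 lie in the run. Among those lower, the proteoglycan Sdc2 fell from 511 ± 0.922 to 150 ± 5.62 CPM (SD, n = 3), and Ext1, which builds heparan sulfate, from 1395 ± 49.0 to 452 ± 21.3 CPM. Housekeeping and cell cycle genes had 3 higher and 15 lower of 21 (median −0.74). The 3 included Golph3 and Sub1, both in the run. Lower were the cohesin subunit Rad21 (−0.66), the poly(A)-binding protein Pabpc1 (−1.17) and the chromatin ATPase Atad2 (−1.17). Of 16 keratin genes listed only Krt7 and Krt80 could be tested, and neither passed.

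Of the 5 largest decreases on chromosome 15 (named genes, mean log2 CPM 3 or more), 4 had 0 counts in every mK4 library: Ccn3, Colec10, Fbxl7 and Rspo2, described above. Ccn3, a matricellular protein, was at 379.0, 396.4 and 394.1 CPM in mK3 with no count in any mK4 library, at least 17737-fold lower (edgeR adjusted p = 7.55e-06). Colec10, a secreted lectin, was at 135 ± 5.46 CPM in mK3 and at 0 in mK4. Fbxl7, an F-box protein, was at 80.4, 72.4 and 92.3 CPM in mK3 without a count in mK4, a decrease of at least 3716-fold (edgeR adjusted p = 3.34e-05). Its mK3 peak overlaps the promoter shown above, with a pileup of 33 and a background of 1.47 times the library value. Fkbp11, a secretory pathway prolyl isomerase, was 1377-fold lower, from 19.9 ± 2.84 CPM, with 6 counts in mK4 replicate 2 and 0 in the others.

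Chromosome 14 had the lowest mK4 to mK3 ratio of the 20 chromosomes, 0.714 relative to all (interval 0.655 to 0.779). From 0 to 50 Mb it had 337 mK3 and 464 mK4 peaks, a relative ratio of 0.892. From 50 to 80 Mb it had 468 and 435, a relative ratio of 0.602, and mK3 had the longer list in each of these 3 bins. The 3 bins were near each other, at 0.614, 0.612 and 0.583. Past 80 Mb the bins were thin, at 24 to 140 peaks for both lines together, and ran from 0.389 (80 to 90 Mb) to 1.15 (110 to 120 Mb). The last bin, 120 to 130 Mb, had 76 mK3 and 64 mK4 peaks. Its relative ratio of 0.545 was below those of the 3 bins from 50 to 80 Mb. The best single boundary was at 48 Mb, with 0.916 before and 0.619 after it, a step of 0.567 on the log2 scale and the sixth of 20 chromosomes by size.

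Local background also changed along chromosome 14, with a smaller step. Over the peaks listed in both lines, least squares with 2 boundaries was fitted to the log2 mK4 to mK3 ratio of relative background. It placed a middle piece at chr14:54253730-79661446 (mm10). There the mK4 to mK3 ratio of relative background had a median of 0.692 (quartiles 0.620 and 0.771) and was below 1 in 243 of 245 shared peaks. It was 1.00 over 250 shared peaks before and 0.969 over 112 after. These same ratios drew the piece, so its contrast with the peaks around it is a description. Among all listed peaks the mK3 median was 1.59 times its library background in the piece, 1.18 before and 1.18 after. The mK4 medians were 1.12, 1.13 and 1.15. The measure cannot fall below 1, so a lower mK4 background could not be read from them.

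The middle piece held 428 mK3 and 391 mK4 peaks, a relative ratio of 0.592. Pileups at its shared peaks had a median mK4 to mK3 ratio of 0.718, against 0.969 before and 0.824 after. Median fold enrichment was 3.73 in mK3 and 5.01 in mK4. Within 1 kb of a gene end lay 38.3% of mK3 and 39.9% of mK4 peaks. In contrast to the chromosome 15 run, 62.7% of mK4 peaks and 54.9% of mK3 peaks had a partner in the other line. After the piece, at 79661447 and beyond, the relative peak ratio was still 0.672 while the background ratio had returned to 0.969, so the 2 measures parted there.

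RNA of chromosome 14 was lower in mK4 for many genes. Of 578 tested genes 70 were higher (12.1%) and 219 lower (37.9%), with a median log2 fold change of −0.42, the second lowest of 20 chromosomes. Over all tested genes 20.8% were higher and 19.5% lower. In the middle piece 20 of 235 genes were higher and 117 lower (49.8%), with a median of −0.68. Before it 39 of 265 were higher and 72 lower (27.2%), with a median of −0.26. After it 11 of 78 were higher and 30 lower (38.5%), with a median of −0.54. The 120 to 130 Mb bin had 0 higher and 12 lower of 25, with a median of −0.74. In the piece the 3 mK3 libraries lay 0.28 to 0.34 above the genes' mean on the log2 scale, and the 3 mK4 libraries 0.26 to 0.30 below it, as medians over genes, so no single library carried the difference. Whether the shift differs between pieces was not tested.

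Scaling by library totals in place of TMM moved the median of all genes from 0.02 to 0.13. The medians under it were −0.58 in the chromosome 14 piece and 2.83 in the chromosome 15 run, so both kept their direction. In bulk RNA, fewer cells expressing a gene and less RNA per cell cannot be told apart.

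**Figure D5:**
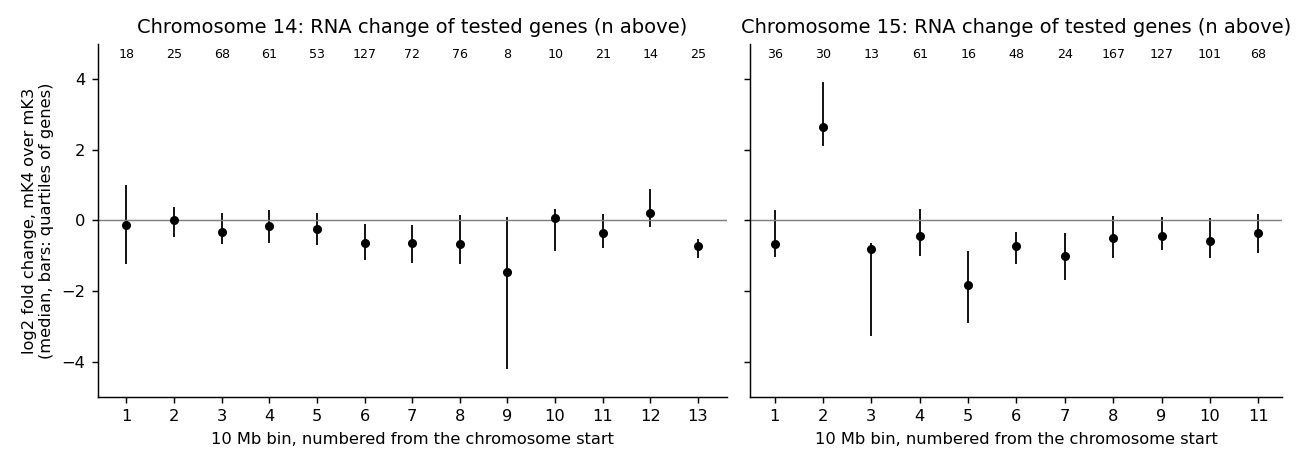
Median log2 fold change of RNA (mK4 over mK3) of the tested genes in each 10 Mb bin, with bars for the quartiles over genes and the number of genes above. Bin 2 of chromosome 15 is at 2.66 over 30 genes, and bins 6 to 8 of chromosome 14 are at −0.63 to −0.68.

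Signals and receptors of chromosome 14 had 1 higher and 6 lower of 9 tested (median −1.49). Over the whole chromosome 12.1% of tested genes were higher and 37.9% lower (median −0.42). No list of chromosome 14 was tested against these shares. Bmp4, a growth factor of the mesenchyme around the ureteric bud, was at 23.45, 13.23 and 28.01 CPM in mK3 and 2.52, 2.45 and 5.53 in mK4, 6.16-fold lower (edgeR adjusted p = 0.00481). No peak was listed at its start in either line. Rarb, a retinoic acid receptor, was at 281.9, 281.2 and 240.7 CPM in mK3 and 101.7, 78.8 and 84.1 in mK4, 3.04-fold lower (edgeR adjusted p = 0.000194). The promoter shown above, at a start inside the gene's full span, held an mK3 peak with a pileup of 53 and no mK4 peak. Spry2, a feedback inhibitor of receptor tyrosine kinases, was 1.73-fold lower. Wnt5a, a noncanonical Wnt ligand, was at 4.54, 3.87 and 5.81 CPM in mK3 and 12.5, 2.40 and 13.3 in mK4 and did not pass (edgeR adjusted p = 0.254). Of 12 alternatives it passed only without mK4 replicate 2, its low library (log2 fold change 1.45, edgeR adjusted p = 0.00771).

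Matrix and adhesion genes of chromosome 14 had 4 higher and 10 lower of 16 tested (median −1.03). Mmp14, a membrane collagenase, was at 85.3, 65.7 and 63.8 CPM in mK3 and 0, 0.007 and 0.080 in mK4 (log2 fold change −11.20 ± 0.73, edgeR adjusted p = 0.000111). Loxl2, which crosslinks collagen, fell from 135 ± 12.9 to 0.158 ± 0.077 CPM (SD, n = 3). Both lie in the middle piece, and an mK3 peak without an mK4 peak was listed near the Mmp14 start. Vcl, the adhesion linker vinculin, was 2.34-fold lower and had a start peak in both lines. Clu, a secreted chaperone, was 36.1-fold higher at 6.996 CPM, although it too lies in the piece, and Lmo7, an adherens junction protein, was 4.20-fold higher.

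Of 10 tested transcription factors of chromosome 14, 0 were higher and 5 lower (median −0.26). Nfatc4, a calcium-regulated factor, was at 9.32, 9.44 and 8.41 CPM in mK3 and at most 0.029 in mK4 (edgeR adjusted p = 0.000422). Gata4 (−0.29, edgeR adjusted p = 0.493) and Klf5 (0.27, edgeR adjusted p = 0.152) did not pass. Housekeeping genes had 2 higher and 12 lower of 19 (median −0.71). Ctsb, a lysosomal protease, was at 752.8, 741.9 and 798.5 CPM in mK3 and 207.3, 195.4 and 204.0 in mK4, 3.78-fold lower (edgeR adjusted p = 1.13e-05). Ipo5, a nuclear import receptor, was 2.10-fold lower, with start peaks at similar background in both lines (1.93 and 1.80 times).

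The 5 largest increases named on chromosome 14 (mean log2 CPM 3 or more) were Saysd1, Scara5, Dach1, Lmo7 and Scel. Of these 4 lay outside the middle piece, which holds 235 of the 578 tested genes. Clu, 36.1-fold higher within the piece, was below that CPM level. Dach1, a developmental corepressor, had 0 counts in mK3 and 89.5, 107.9 and 96.1 CPM in mK4, at least 4049-fold above the floor (edgeR adjusted p = 2.45e-05). Saysd1 was at 0, 0.824 and 0 CPM in mK3 and 60.6, 74.3 and 60.7 in mK4 (log2 fold change 7.89 ± 1.48, edgeR adjusted p = 0.00713). Scel, an epithelial envelope protein, rose from 0.227 ± 0.263 to 35.7 ± 11.1 CPM (SD, n = 3), and the promoters of both, shown above, held mK4 peaks with pileups of 68 and 36. Scara5, a ferritin receptor, rose 224-fold to 45.6 ± 2.17 CPM and lies within the piece. By the same choice, the 5 largest decreases on chromosome 14 were Plau, Mmp14, Loxl2, Htr2a and Klf12. Plau, the urokinase protease, fell from 44.3 ± 3.70 to 0.013 ± 0.023 CPM. Htr2a, a serotonin receptor in the piece, fell by 9.05 on the log2 scale, and the transcription factor Klf12 by 6.37. All their mK4 counts, 68 and 99, came from replicate 1, and without it neither had a count in mK4. Klf12 missed the threshold when any 1 mK3 library was left out (edgeR adjusted p = 0.0591 to 0.0649). Tnfsf11, the RANK ligand, had 0 counts in mK4, at least 374-fold lower.

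Bin by bin, peak ratio and RNA change went together. Over the 23 bins of both chromosomes with at least 10 tested genes, the log2 relative peak ratio and the median RNA log2 fold change had a Pearson r of 0.82 and a Spearman rho of 0.58. Without the 10 to 20 Mb bin of chromosome 15 these were 0.53 and 0.52 (22 bins). On the other chromosomes they were 0.65 and 0.64 over 240 bins. All bins share the same 2 ATAC-seq and 6 RNA libraries, so these are descriptions. Bins at the extremes in both measures were 10 to 20 Mb of chromosome 15, rank 1 of 264 in peak ratio with the highest RNA median of all bins (2.66, 27 of 30 genes higher and 0 lower), and 40 to 50 Mb, with the lowest RNA median (−1.84, 0 higher and 10 lower of 16).

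Counterparts in the other line were less frequent for mK3 peaks here than on other chromosomes. On chromosome 14, 593 of 991 mK3 peaks (59.8%) and 607 of 1093 mK4 peaks (55.5%) overlapped a peak of the other line. On chromosome 15 the shares were 913 of 1516 (60.2%) and 932 of 2200 (42.4%). On all other chromosomes together they were 73.4% of mK3 and 47.0% of mK4 peaks, and the mK3 shares of chromosomes 14 and 15 were the 2 lowest of 20. Among peaks without a counterpart, the most enriched of mK4 was chr15:51798737-51799170, within Eif3h, with a fold enrichment of 12.9 and a pileup of 95. The most enriched of mK3 was chr14:82065237-82065674, 2042 kb from the nearest gene end (Olfm4), with a fold enrichment of 11.5. Of the 3 most enriched unpartnered mK4 peaks of chromosome 15, none came from the run, where enrichment over the local background was low.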

How the data were processed

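RNA-seq (6 libraries) and ATAC-seq (2 libraries) were analysed. The deposited expression table holds whole-number counts per gene, not normalized. The deposited peak lists, 1 per line, give fold enrichment as a ratio, and −log10 p and −log10 q, from the authors' peak caller, read by the standard order of its columns. The submitters' processing notes name MACS3, Bowtie2, deepTools, bedtools and SAMtools beside the RNA tools STAR 2.7.10a and HTSeq 2.0.2, with mm10 as the build. No source used here gives their settings or the ATAC-seq read totals. No listed peaks of a line overlap each other. Lists differ in length, so ratios were divided by that of chromosomes 1 to 19 and X.

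Pileup n and background λ were solved from fold = (n + 1)/(λ + 1) and p = P(X > n) under a Poisson law. Only whole numbers were tried for n. One that met the listed −log10 p to within 0.001 was found for all peaks but 1 of chromosomes 1 to 19 and X. Read depth at peaks sets which are listed. A count of 3 is the floor for a library at 0.

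Counts were fitted in edgeR 4.0.16 (R 4.3.3; filterByExpr, TMM, robust quasi-likelihood) over all genes. SE is the log2 fold change divided by the square root of F. Genes were placed by symbol on RefSeq GRCm38.p6, which matched 82.8% of tested genes, and the others enter no regional count. The edgeR and peak steps were tested on simulated data. DESeq2 1.42.0, other filters and scalings, a replicate block and leaving out libraries were alternatives. Named genes were the 5 largest increases and decreases per chromosome (all libraries apart, mean log2 CPM at least 3), up to 2 members per list and direction, and Gdnf, Cdh6, Myc, Wnt5a, Bmp4 and Spry2. Genes of the chromosome 15 run and its neighbours were added after their values were seen. Chromosomes, lists and regions were chosen with earlier results of these data known. Python 3.11.15, SciPy 1.17.1 and pandas 2.3.3 were used.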

Additional observations from a re-analysis of the deposited data

How the results depend on the processing

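For the relative ratios, peaks of −log10 q of at least 5 gave 0.7805 (chromosome 14) and 1.03 (chromosome 15), peaks of fold enrichment of at least 5 gave 0.963 and 1.11, peaks within 1 kb of a gene end gave 0.841 on chromosome 14 and peaks farther away 0.641. The best boundary of chromosome 14 moved from 48 to 55 Mb with equal numbers of strongest peaks, and to 41 Mb with gene-end peaks, which moved that of chromosome 15 from 17 to 42 Mb. The 8 bins past 1.5-fold became 5 with the −log10 q setting, 4 with the fold setting, 2 with gene-end peaks, 5 with bins shifted by 5 Mb and 3 at 2-fold. The cause was not tested, other than that these settings, apart from the shifted bins, leave fewer peaks or a wider threshold. Peaks with a counterpart fell from 60.1% to 55.7% (mK3) and from 46.7% to 41.9% (mK4) when at least 0.5 of the peak had to overlap. Covered bases and merged intervals, the latter equal to the listed peaks, changed no ratio beyond its interval. The length of the chromosome 15 run, from the start of its first to the end of its last piece, was 8.301 to 8.426 Mb under 4 settings chosen after seeing the data. A filter at 1 CPM in all libraries, which tests fewer genes, gave 41 genes higher on chromosome 14 (70 in the report), 60 on chromosome 15 (98) and 21 in the run (33). Leaving out 1 RNA library gave 187 to 205 lower genes on chromosome 14, 241 to 256 on chromosome 15, and 30 to 32 higher genes in the run. With a replicate block the counts were 52 higher and 179 lower on chromosome 14, 81 and 231 on chromosome 15, and 29 higher in the run. Replicate numbers did not pair the libraries (correlations of deviations −0.023 to 0.021 between lines). Of 78 called genes examined singly, 10 lost the call in at least 1 of 12 alternatives (Il17rd, Rb1, Klf12, Mycbp2, Dnajc3, Nadk2, Gm2573, Gm29742, Gm49249 and Rxfp3), and 0 changed sign. With 1 ATAC-seq library per line no peak difference has a replicate check, and depth and library quality cannot be told apart from the line.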
